A study of Sus scrofa with 9 samples.

Results

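Cyclins and the kinases they activate drive cells into and through division, and 10 genes of this machinery were followed here over the formation of pig sperm. The genes were taken by symbol: CCNA1, CCNA2, CCNB1, CCNB2, CCNB3, CDK1, CDK2, PKMYT1, CDC25C and ESPL1. Symbols were paired with 14749 of the 22342 Ensembl gene identifiers measured, and 8 of the 10 genes were matched this way. CCNA2 and CDC25C are not analysed here. RNA came from pig testis cells labelled as spermatogonia, spermatocytes and round spermatids, with 3 libraries per stage. Spermatogonia are the mitotic founders of the germ line, spermatocytes carry out meiosis, and its haploid products are the round spermatids. The labels name no treatment, breed, age or number of animals. The design pairs expression with chromatin folding in spermatogenesis, and the question here is how each gene differed between stages.

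A cyclin-dependent kinase (CDK) is inactive until a cyclin binds it. Cyclin B with CDK1 forms the M-phase promoting factor, and PKMYT1, a kinase of inner membranes, holds that complex inactive by phosphorylating CDK1 until CDC25 phosphatases remove the mark. Its activity condenses chromosomes and builds the spindle, and separase, encoded by ESPL1, then cuts cohesin so that chromosomes part. In mouse testis CCNA1 is a germ cell cyclin needed by spermatocytes to enter the first meiotic division, while CDK2 acts at telomeres in meiotic prophase.

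Library totals ran from 47963279 to 64639201 estimated counts. Levels between libraries are in CPM, with library sizes corrected by TMM factors, as mean ± SD of 3 libraries. Levels between genes are compared only in TPM, which corrects for transcript length. A gene was called where edgeR's quasi-likelihood test gave a Benjamini-Hochberg adjusted p below 0.05 over all 16802 genes tested, and all 8 genes passed the filter on low counts. Markers of stage and of other cells did not follow the labels throughout. The 7 smooth muscle markers summed to 21.5 to 23.1 CPM in spermatogonia, 8.49 to 20.7 in spermatocytes and 4819 to 5880 in round spermatids. The 6 Leydig cell markers summed to 305 to 323 CPM in spermatogonia, 6.42 to 8.19 in spermatocytes and 35.4 to 42.7 in round spermatids. The 10 round spermatid markers, protamines among them, summed to 1992 to 2032 CPM in spermatogonia, 489 to 1563 in spermatocytes and 4891 to 7206 in round spermatids. Of these 10, 4 rose and 5 fell in round spermatids against spermatogonia, with PRM1 at 3086 against 746 CPM and SPACA4 at 8.73 against 101 CPM. The 9 spermatocyte markers summed to 706 to 714 CPM in spermatogonia, 2326 to 2822 in spermatocytes and 247 to 322 in round spermatids, and 5 rose and 3 fell in spermatocytes against spermatogonia. TEX101, SPO11 and DMC1 had their highest means in spermatogonia. The 11 spermatogonia markers summed to 278 to 287 CPM in spermatogonia, 291 to 351 in spermatocytes and 216 to 271 in round spermatids. ETV5 made up most of that in spermatogonia, at 171 CPM, and in spermatocytes, at 274 CPM, and stood at 62.6 CPM in round spermatids. There ID4 was the largest of these markers, at 105 CPM, against 1.03 in spermatogonia and 1.69 in spermatocytes. Of the 9 tested 6 fell and 1 rose in spermatocytes against spermatogonia, with UCHL1 at 1.72 against 26.1 CPM. NANOS2 was at 0 in every spermatocyte library, but averaged only 0.123 CPM in spermatogonia, where 3 of the 11 averaged under 1 CPM. KIT, the receptor whose name heads the spermatogonia columns, averaged 6.36 CPM in spermatogonia, 7.47 in spermatocytes and 24.6 in round spermatids. Sertoli cell markers (8 matched) summed to 67.1 to 71.2 CPM in spermatogonia, 31.1 to 48.6 in spermatocytes and 229 to 314 in round spermatids, endothelial markers (5) to 10.1 to 11.5, 4.80 to 17.4 and 171 to 193, leukocyte markers (7) to 2.21 to 2.84, 1.22 to 3.04 and 26.4 to 34.8, and erythrocyte markers (3) to 1.01 to 1.16, 1.79 to 2.79 and 2.17 to 3.76 in the same order of stages. A stage name below stands for the libraries carrying that label. In such mixtures, fewer cells of a type and less RNA per cell cannot be told apart. Spermatogonia libraries were closely alike, with a coefficient of variation over the 8 genes of 2.33% at the median, against 14.5% in spermatocytes and 15.4% in round spermatids.

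Length-corrected levels placed cyclin B2 first and cyclin B3 last at every stage. In spermatogonia the order in TPM was CCNB2 (449.5 ± 4.99), CCNA1 (313 ± 1.18), PKMYT1 (229 ± 4.10), CCNB1 (123 ± 0.358), ESPL1 (97.1 ± 3.33), CDK1 (58.1 ± 1.61), CDK2 (21.3 ± 1.95) and CCNB3 (0.738 ± 0.120), and no neighbours in that order overlapped. In spermatocytes CCNB2 stood at 667 ± 56.2 TPM, CCNA1 at 187 ± 4.55 and PKMYT1 at 103 ± 15.4. Next came CDK1 at 50.9 ± 5.79 TPM and CCNB1 at 47.8 ± 9.73, whose libraries overlapped. ESPL1 at 29.6 ± 4.56 TPM, CDK2 at 14.8 ± 3.54 and CCNB3 at 0.648 ± 0.104 closed the order. Round spermatids 2 had the highest TPM of its stage for every gene but CDK2, and the cause was not tested. CCNA1 stood at 111, 182 and 99.0 TPM in round spermatids 1, 2 and 3, but at 135, 136 and 123 CPM. In round spermatids CCNB2 at 174 ± 38.2 TPM and CCNA1 at 131 ± 44.7 overlapped across libraries, though CCNB2 was the higher within each library. CCNB1 followed at 34.8 ± 20.4 TPM. PKMYT1 at 13.8 ± 5.49 TPM, CDK2 at 12.4 ± 5.60 and CDK1 at 12.1 ± 4.13 overlapped one another across libraries. Within each library PKMYT1 lay above CDK1, while the place of CDK2 changed between libraries. ESPL1 followed at 4.81 ± 2.65 TPM, its highest library above the lowest of CDK2, though within each library it lay below CDK2. CCNB3 was last at 0.530 ± 0.235 TPM. CCNB2 thus had more transcript per length than 98.2% of all genes with any count in spermatogonia, 99.0% in spermatocytes and 96.8% in round spermatids. For CCNB3 the shares were 32.4, 40.7 and 27.7%.

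**Figure D1:**
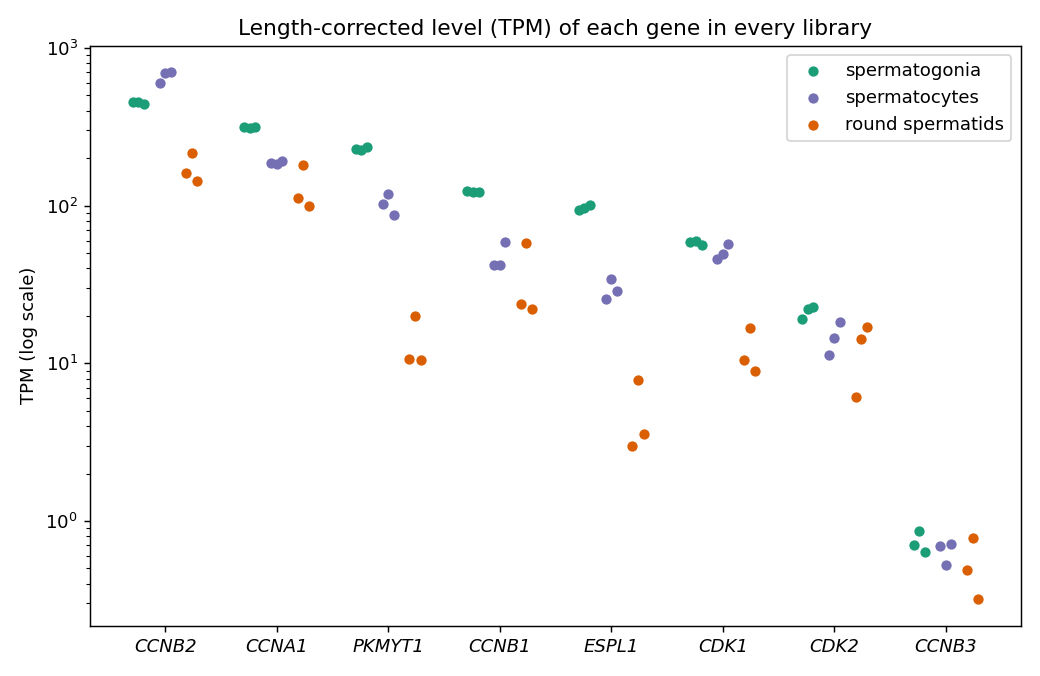
TPM on a log axis for 8 genes, ordered by their spermatogonia mean, with 1 point per library coloured by stage. CCNB2 and CCNA1 lead at every stage, CCNB3 lies below 1 TPM throughout, and PKMYT1 and ESPL1 spread furthest between stages.

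Cyclin A1 was highest in spermatogonia and lowest in round spermatids, in small steps. CCNA1 (ENSSSCG00000009354, chromosome 11 from 12396149 to 12405357 of Sscrofa11.1) stood at 216, 212 and 213 CPM in spermatogonia 1, 2 and 3, at 189, 184 and 177 CPM in spermatocytes 2, 3 and 4, and at 135, 136 and 123 CPM in round spermatids 1, 2 and 3. No stage overlapped another. Round spermatids held 1.62-fold less than spermatogonia (132 ± 7.08 against 213 ± 2.25 CPM, log2 fold change -0.70 ± 0.0904 SE, edgeR adjusted p = 4.00e-05), which passed in all 21 alternative settings. Round spermatids also held 1.39-fold less than spermatocytes (132 ± 7.08 against 183 ± 6.11 CPM, adjusted p = 0.000595), a call lost with no normalization factors (log2 fold change -0.013). The difference of spermatocytes from spermatogonia was -0.22 ± 0.0900 and barely passed (adjusted p = 0.0479). It held in 7 of 21 alternatives, with adjusted p up to 0.994, was lost whenever a spermatogonia or spermatocyte library or round spermatids 1 was left out, and changed sign without the 50 most abundant genes in the scaling and with no filter.

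Cyclin B1, the mitotic partner of CDK1, and cyclin B2, a second partner found on the Golgi, moved apart between spermatogonia and spermatocytes. CCNB1 (ENSSSCG00000029326, chromosome 16 from 47338239 to 47348385) stood at 173, 170.3 and 169.9 CPM in spermatogonia 1, 2 and 3, at 88.1, 86.5 and 111 CPM in spermatocytes 2, 3 and 4, and at 59.4, 89.2 and 56.6 CPM in round spermatids 1, 2 and 3. Every spermatogonia library lay above every other, while round spermatids 2 reached into the range of spermatocytes. CCNB1 fell 1.80-fold in spermatocytes (95.2 ± 13.7 against 171 ± 1.81 CPM in spermatogonia, edgeR adjusted p = 0.00138) and 2.503-fold in round spermatids (68.4 ± 18.1 against 171 ± 1.81 CPM in spermatogonia, adjusted p = 5.00e-05), both in 21 of 21 alternatives. Its fall in round spermatids against spermatocytes (log2 fold change -0.48 ± 0.175 SE, adjusted p = 0.0274) held in 11 of 21 alternatives, with adjusted p from 0.000293 to 0.991. It was lost without spermatocytes 4 (adjusted p = 0.0935), round spermatids 1 (0.0964) or round spermatids 3 (0.1), and with no normalization factors the value was 0.0032.

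CCNB2 (ENSSSCG00000004588, chromosome 1 from 112907047 to 112942218) stood at 297, 294 and 288 CPM in spermatogonia 1, 2 and 3, at 586, 670.0 and 616 CPM in spermatocytes 2, 3 and 4, and at 187, 155 and 171 CPM in round spermatids 1, 2 and 3. Spermatocytes were highest and round spermatids lowest, with no overlap between stages. CCNB2 rose 2.13-fold in spermatocytes (624 ± 42.5 against 293 ± 4.77 CPM in spermatogonia, log2 fold change 1.09 ± 0.106 SE, edgeR adjusted p = 8.72e-06). It fell 3.64-fold in round spermatids against spermatocytes (171 ± 16.2 against 624 ± 42.5 CPM, adjusted p = 8.08e-08) and 1.71-fold against spermatogonia (171 ± 16.2 against 293 ± 4.77 CPM, adjusted p = 5.60e-05). The 3 calls held in 21 of 21 alternatives each. The rise ranged from 0.56 to 1.33 on the log2 scale over those alternatives.

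Cyclin B3, an X-linked cyclin that in mouse is needed for anaphase of oocyte meiosis, was scarce. CCNB3 (ENSSSCG00000012307, chromosome X from 43922729 to 43988939) stood at 1.505, 1.83 and 1.34 CPM in spermatogonia 1, 2 and 3, at 2.19, 1.64 and 2.03 CPM in spermatocytes 2, 3 and 4, and at 1.83, 1.80 and 1.22 CPM in round spermatids 1, 2 and 3. All stages overlapped, on 72.4 to 129 estimated counts per library. No comparison passed: the log2 difference was 0.33 ± 0.224 SE for spermatocytes against spermatogonia, -0.27 ± 0.226 for round spermatids against spermatocytes and 0.05 ± 0.224 for round spermatids against spermatogonia (edgeR adjusted p = 0.207, 0.282 and 0.831). The first passed in 2 of 20 alternatives, and each changed sign in at least 1.

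Within each library, CCNB2 supplied most of the B-type cyclin transcript, a share that no scaling between libraries can move. It made up 78.5, 78.6 and 78.3% of the summed TPM of CCNB1, CCNB2 and CCNB3 in spermatogonia 1, 2 and 3, then 93.3, 94.2 and 92.1% in spermatocytes 2, 3 and 4, and 86.9, 78.6 and 86.5% in round spermatids 1, 2 and 3. Spermatocytes lay above all other libraries, and round spermatids 2 lay level with spermatogonia. The mean was 14.8 percentage points higher in spermatocytes than in spermatogonia, 9.26 lower in round spermatids than in spermatocytes (a difference of -9.26) and 5.53 higher in round spermatids than in spermatogonia. Each of these gave p = 0.1 in an exact two-sided permutation test, the smallest that 3 against 3 libraries allow, so the design cannot pass 0.05. On shares of estimated counts, which weigh long transcripts more, the first of these differences was 23.6 points and the next -15.4. There round spermatids 2, at 63.02%, lay between spermatogonia 1 at 62.97% and spermatogonia 2 at 63.06%, so round spermatids and spermatogonia overlapped.

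**Figure D2:**
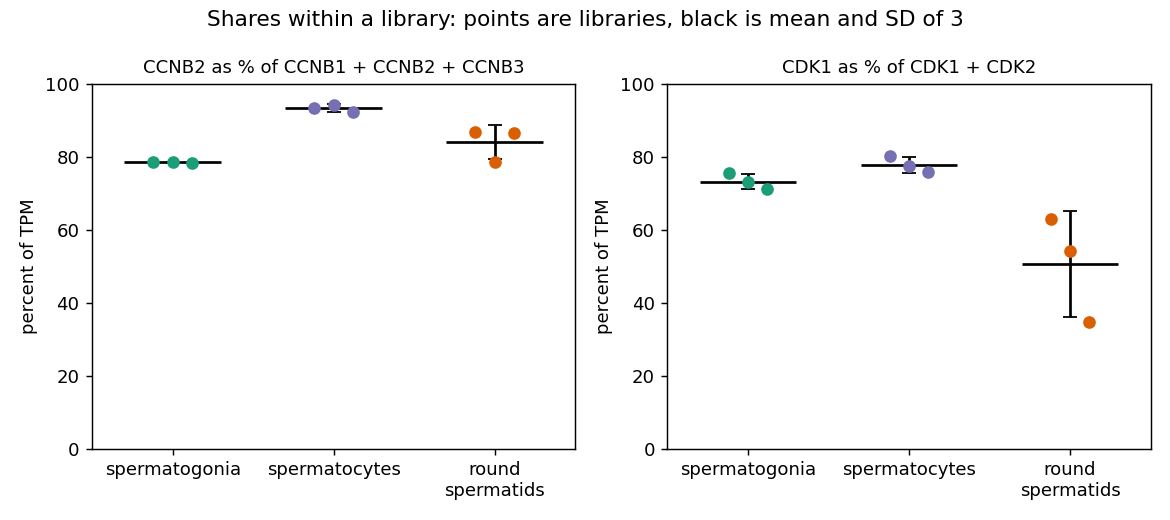
Percent of TPM within each library, with CCNB2 among the 3 B-type cyclins on the left and CDK1 among CDK1 and CDK2 on the right; points are libraries, black marks the mean and SD of 3. The CCNB2 share is highest in the 3 spermatocyte libraries (92.1 to 94.2%), and the CDK1 share is lowest and most spread in round spermatids (34.6 to 63.0%).

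The kinase genes parted in the haploid stage. CDK1 (ENSSSCG00000010214, chromosome 14 from 64233945 to 64255290), the kinase of the M-phase promoting factor, stood at 21.1, 21.2 and 20.1 CPM in spermatogonia 1, 2 and 3, at 24.6, 26.2 and 27.7 CPM in spermatocytes 2, 3 and 4, and at 6.70, 6.58 and 5.86 CPM in round spermatids 1, 2 and 3. All round spermatid libraries lay far below the rest. CDK1 fell 4.10-fold in round spermatids against spermatocytes (6.38 ± 0.454 against 26.2 ± 1.54 CPM, log2 fold change -2.04 ± 0.114 SE, edgeR adjusted p = 6.71e-08) and 3.26-fold against spermatogonia (6.38 ± 0.454 against 20.8 ± 0.632 CPM, adjusted p = 3.07e-07), in 21 of 21 alternatives each. Its rise in spermatocytes against spermatogonia was small, at 0.33 ± 0.109 (adjusted p = 0.0189). That call held in 12 of 21 alternatives, with adjusted p up to 0.580, was lost without spermatogonia 1, 2 or 3 (adjusted p = 0.0591, 0.0562 and 0.0830), and had the opposite sign with no normalization factors and on TPM.

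CDK2 (ENSSSCG00000037597, chromosome 5 from 21365723 to 21372170) stood at 33.9, 38.8 and 39.9 CPM in spermatogonia 1, 2 and 3, at 29.9, 37.8 and 43.8 CPM in spermatocytes 2, 3 and 4, and at 19.3, 27.5 and 54.5 CPM in round spermatids 1, 2 and 3. The stages overlapped, and round spermatids 3 was the highest of all 9 libraries. No comparison passed, with log2 differences of -0.01 ± 0.314 SE for spermatocytes against spermatogonia, -0.14 ± 0.314 for round spermatids against spermatocytes and -0.15 ± 0.314 for round spermatids against spermatogonia (edgeR adjusted p = 0.969, 0.699 and 0.666). Without round spermatids 3 both differences of round spermatids passed, at -0.67 against spermatocytes (adjusted p = 0.0143) and -0.69 against spermatogonia (0.0131), and without round spermatids 1 both were above 0, at 0.14 and 0.13. CDK1 made up 75.4, 72.9 and 71.2% of the summed TPM of CDK1 and CDK2 in spermatogonia 1, 2 and 3, then 80.2, 77.3 and 75.7% in spermatocytes 2, 3 and 4, and 63.0, 54.0 and 34.6% in round spermatids 1, 2 and 3. Every round spermatid library lay below every other library (differences of -27.2 percentage points against spermatocytes and -22.6 against spermatogonia), and spermatocytes lay 4.55 points above spermatogonia. The exact permutation p was 0.1 in each case. On estimated counts, which are not corrected for transcript length, CDK1 was the smaller part in every library. Its share there ran from 9.70% in round spermatids 3 to 45.1% in spermatocytes 2.

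PKMYT1, the inhibitory kinase, and ESPL1, the separase, had the largest differences of the 8 genes in both comparisons of round spermatids. PKMYT1 (ENSSSCG00000029264, chromosome 3 from 39201819 to 39209261) stood at 347, 338 and 349.7 CPM in spermatogonia 1, 2 and 3, at 229.8, 262 and 177 CPM in spermatocytes 2, 3 and 4, and at 28.6, 33.1 and 28.8 CPM in round spermatids 1, 2 and 3. The stages did not overlap. It fell 7.38-fold in round spermatids against spermatocytes (30.2 ± 2.55 against 223 ± 42.7 CPM, log2 fold change -2.88 ± 0.150 SE, edgeR adjusted p = 4.21e-08) and 11.4-fold against spermatogonia (30.2 ± 2.55 against 345 ± 6.18 CPM, adjusted p = 2.54e-08). Both held in 21 of 21 alternatives. In spermatocytes it was 1.55-fold lower than in spermatogonia (223 ± 42.7 against 345 ± 6.18 CPM, adjusted p = 0.00217), in 20 of 21 alternatives; with the scaling set without the 50 most abundant genes it did not pass (log2 fold change -0.38, adjusted p = 0.0521).

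ESPL1 (ENSSSCG00000000265, chromosome 5 from 18486969 to 18509913) stood at 337, 339.8 and 355 CPM in spermatogonia 1, 2 and 3, at 135, 180.3 and 137 CPM in spermatocytes 2, 3 and 4, and at 19.0, 30.6 and 23.1 CPM in round spermatids 1, 2 and 3. Again no stage overlapped another. It fell 2.28-fold in spermatocytes against spermatogonia (151 ± 25.6 against 344 ± 9.88 CPM, edgeR adjusted p = 0.000146), 6.22-fold in round spermatids against spermatocytes (24.2 ± 5.85 against 151 ± 25.6 CPM, adjusted p = 3.12e-07) and 14.2-fold in round spermatids against spermatogonia (24.2 ± 5.85 against 344 ± 9.88 CPM, log2 fold change -3.83 ± 0.194 SE, adjusted p = 5.97e-08). Each held in 21 of 21 alternatives. Of all genes tested, 0.708% had a lower log2 change than ESPL1 in round spermatids against spermatogonia and 1.05% a lower one than PKMYT1.

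**Figure D3:**
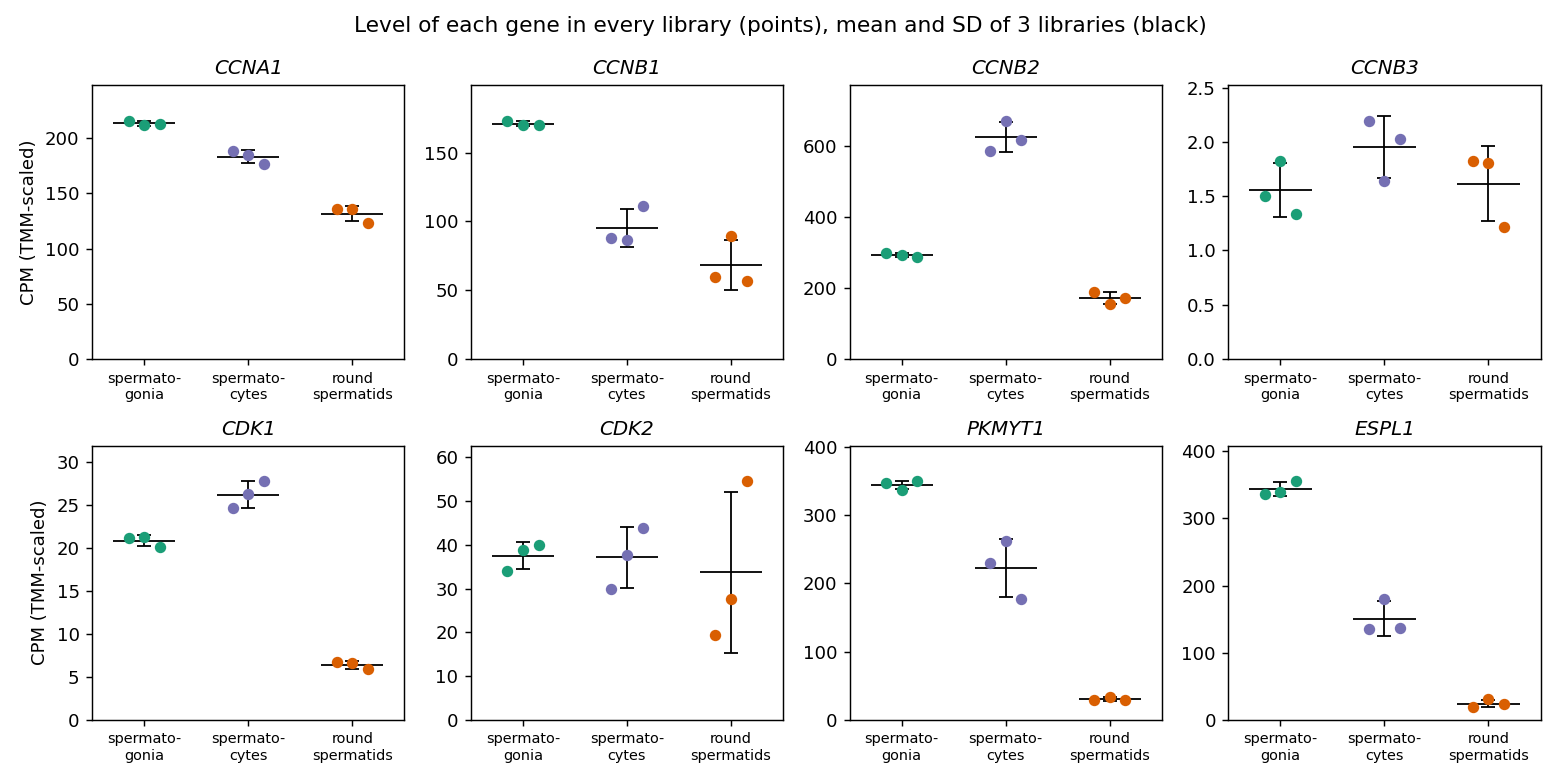
TMM-scaled CPM of each gene in all 9 libraries, each panel from 0, with stages in order along the x axis; coloured points are libraries and black marks the mean and SD of 3. CCNB2 peaks in spermatocytes, as does CDK1 on this scale but not on TPM or with no normalization factors, CCNA1, CCNB1, PKMYT1 and ESPL1 are highest in spermatogonia, and CDK2 and CCNB3 overlap between stages.

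Counted together, 2 of the 8 genes rose in spermatocytes against spermatogonia, 4 fell and 2 did not pass. Without the 50 most abundant genes in the scaling 3 rose and 2 fell, and with only these stages in the fit 3 rose and 3 fell. Over all genes 73.4% were called there, 29.3% higher and 44.0% lower, so the count is near the background. The median log2 change was -0.12 for the 8 genes and -0.32 for all genes, and the median of all genes moved to -0.74 with no normalization factors, -0.14 with RLE size factors and -0.08 without the 50 most abundant genes. Measured from the median of all genes, the change was 1.42 for CCNB2, 0.65 for CDK1, 0.11 for CCNA1, -0.30 for PKMYT1, -0.52 for CCNB1 and -0.86 for ESPL1. Higher genes made up 40.0% of calls, against 26.8% with no normalization factors, 23.3% on log2(TPM + 1), 46.4% with RLE size factors, 47.7% with no filter and 48.5% without the 50 most abundant genes. Groups did not overlap for 6 of the 8 genes, against 79.9% of all genes.

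In round spermatids 6 of the 8 genes fell against spermatocytes and none rose, where 79.2% of all genes were called, 42.7% higher and 36.4% lower. The median was -1.17 for the 8 genes and 0.19 for all genes, or 0.64 for all genes with no normalization factors, under which 4 of the 8 fell. Higher genes made up 54.0% of calls, against 65.7% with no normalization factors. Groups did not overlap for 5 of the 8 genes, against 78.2% of all. Against spermatogonia the same 6 genes fell and none rose in round spermatids, where 79.2% of all genes were called, 39.5% higher and 39.7% lower. The median was -1.05 for the 8 genes and 0.0029 for all, and groups did not overlap for 6 of the 8, against 85.2% of all. Higher genes made up 49.9% of calls, against 34.9% on log2(TPM + 1). The comparisons share libraries, so their values are side by side and not independent. In the same comparisons all 7 smooth muscle markers, 5 of 5 endothelial markers and 7 and 6 of 7 leukocyte markers rose in round spermatids. Of 8 Sertoli cell markers, 8 rose against spermatocytes and 7 against spermatogonia. The 6 Leydig cell markers differed, with 4 higher and 0 lower against spermatocytes, but 1 higher and 5 lower against spermatogonia. The part of these cells in the falls was not tested.

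**Figure D4:**
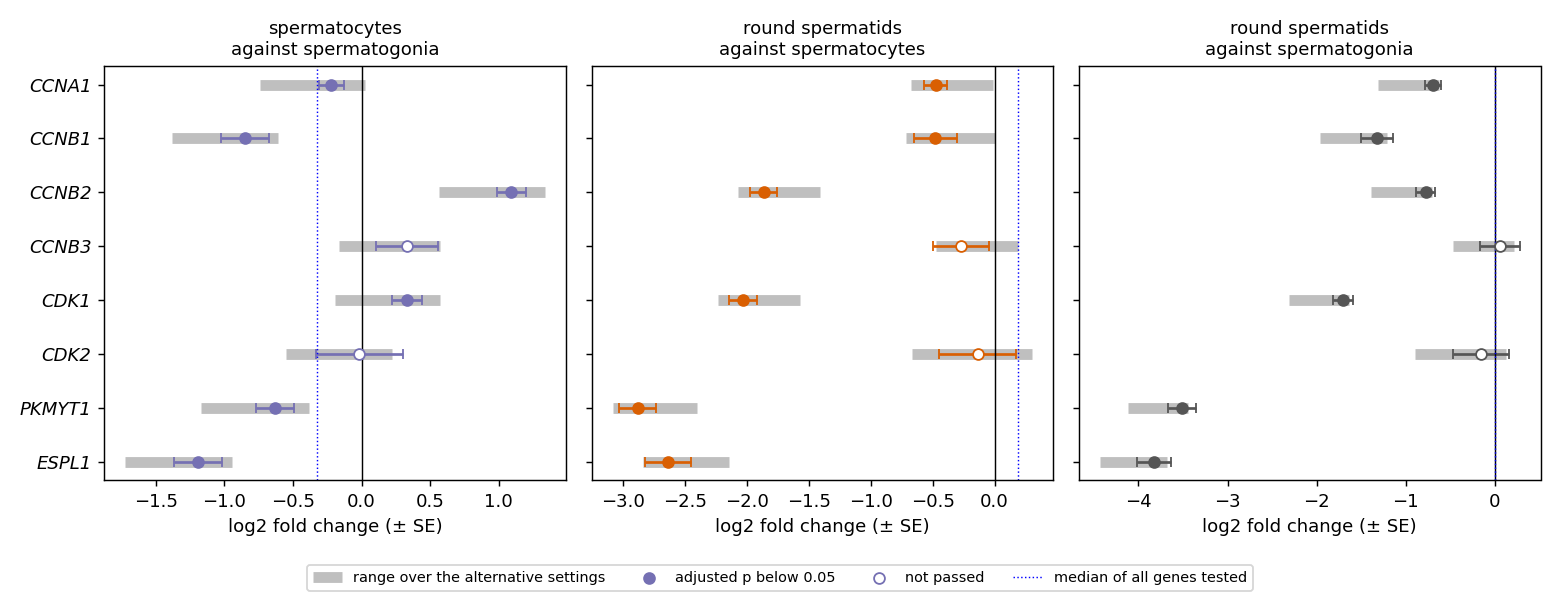
Log2 fold change with its standard error for the 8 genes in each comparison, the first-named stage over the second; filled points passed an adjusted p below 0.05, grey bars span the alternative settings and the dotted line is the median of all genes. PKMYT1 and ESPL1 lie furthest left in both comparisons of round spermatids, and grey bars cross 0 for CCNA1 and CDK1 in spermatocytes against spermatogonia, for CCNB1 in round spermatids against spermatocytes, and for CCNB3 and CDK2 in every comparison.

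Other genes of the division machinery were taken from 8 lists with 100 genes, of which 86 were matched and tested. In spermatocytes 39 were higher and 30 lower than in spermatogonia, where 73.4% of all genes were called, 29.3% higher and 44.0% lower. Against spermatocytes, 19 were higher and 53 lower in round spermatids, where 79.2% of all genes were called, 42.7% higher and 36.4% lower. Against spermatogonia 20 were higher and 52 lower, beside 79.2% of all genes called, 39.5% higher and 39.7% lower. The counts of each list below stand against the same shares in the reported setting, and no list was tested against other genes. Counts from other settings stand against other backgrounds. With no normalization factors, 3376 of 16802 genes were higher and 9202 lower in spermatocytes against spermatogonia. In round spermatids 8572 were higher and 4485 lower against spermatocytes, and 6682 and 6379 against spermatogonia. On log2(TPM + 1), over 20155 genes, the counts in that order were 2644 and 8703, 6499 and 5737, and 4666 and 8705. AURKA, AURKC, PTTG1, FBXO43 and MKI67 could not be matched and are not analysed here.

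Partners and activators of CDK1 and CDK2 counted 7 of 12 genes that rose and 0 that fell in spermatocytes against spermatogonia (median 0.41). With no normalization factors 4 rose and 2 fell (median -0.01), and on log2(TPM + 1) 4 rose and 1 fell (median -0.10). SPDYA, the RINGO activator that binds CDK2 without a cyclin, stood at 739 ± 65.1 CPM in spermatocytes against 235 ± 4.44 in spermatogonia (edgeR adjusted p = 1.65e-06). MNAT1, assembly factor of the CDK-activating kinase, stood at 138 ± 15.99 against 50.2 ± 0.769 CPM. CKS2, a small CDK subunit needed for meiosis in mouse, stood at 170 ± 52.1 against 134 ± 8.06 CPM and PLK1, a mitotic kinase, at 681 ± 67.3 against 596 ± 7.16, neither past the test. In round spermatids 8 of the 12 fell and 2 rose against spermatocytes (median -0.41, and 0.06 with no normalization factors), with SPDYA at 237 ± 28.2 against 739 ± 65.1 CPM and CKS2 at 33.5 ± 7.61 against 170 ± 52.1. PLK1 stood at 576 ± 163 CPM in round spermatids and did not pass against either stage. Against spermatogonia 5 fell and 2 rose (median -0.13), or 9 and 1 on log2(TPM + 1) (median -0.75), and SPDYA, at 237 ± 28.2 against 235 ± 4.44 CPM, did not pass.

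CDK inhibitors moved in both directions in round spermatids. Of 9 genes 4 rose and 5 fell against spermatocytes (4 and 3 with no normalization factors), and 4 rose and 3 fell against spermatogonia (4 and 5 on log2(TPM + 1)). The risers included the CIP/KIP inhibitors CDKN1A (31.2 ± 3.29 against 0.260 ± 0.197 CPM in spermatocytes), CDKN1B, which rose by 2.84 on the log2 scale against spermatogonia, and CDKN1C (14.0 ± 0.474 against 0.667 ± 0.221). The INK4 gene CDKN2D fell (152 ± 13.5 against 509 ± 73.9 CPM in spermatocytes) and so did CDKN2C (29.2 ± 4.26 against 92.9 ± 9.13). WEE1, the nuclear kinase that inhibits CDK1 beside PKMYT1, rose to 175 ± 3.21 CPM in round spermatids, against 88.4 ± 5.88 in spermatocytes and 75.3 ± 0.937 in spermatogonia (edgeR adjusted p = 2.87e-06 and 7.90e-07). WEE2, its relative known from oocytes, fell in both comparisons, as PKMYT1 did, at 0.390 ± 0.194 CPM in round spermatids against 1.53 ± 1.49 in spermatocytes and 3.96 ± 0.187 in spermatogonia (adjusted p = 0.0130 and 0.000474), and against spermatocytes in 15 of 21 alternatives. In spermatocytes against spermatogonia 3 of the 9 rose and 4 fell (median 0.10), or 1 and 4 with no normalization factors (median -0.33).

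Among cyclins and kinases of G1 and S phase, of 10 genes 7 fell and 1, CCNE2, rose in spermatocytes against spermatogonia (median -1.07), with the D-type cyclin CCND3 at 1.39 ± 0.150 against 9.25 ± 0.356 CPM. In round spermatids 6 rose and 2 fell against spermatocytes (median 1.04), and 6 rose and 3 fell against spermatogonia (median 0.59), or 3 and 3 on log2(TPM + 1) (median -0.04). CCND2 stood at 2.82 ± 0.0290 CPM in spermatogonia, 3.14 ± 1.07 in spermatocytes and 60.5 ± 4.93 in round spermatids, and its kinase partner CDK4 at 10.7 ± 0.416, 5.36 ± 1.05 and 30.1 ± 7.59 CPM in that order of stages. The same round spermatid libraries carried the smooth muscle markers ACTA2 at 1089 CPM and MYH11 at 2153 CPM on average. Whether D-type cyclins and CIP/KIP inhibitors came with those cells was not tested.

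The anaphase-promoting complex, which marks cyclin B and the brakes of separase for destruction, fell in round spermatids. Of 17 genes 13 fell and 0 rose against spermatocytes (median -0.81), and 13 fell and 3 rose against spermatogonia (median -1.05). CDC27, a core subunit, stood at 126 ± 24.03 CPM in round spermatids against 454 ± 54.0 in spermatocytes, and CDC20, its activator in mitosis, at 143 ± 24.3 against 249.9 ± 12.8. With no normalization factors 8 of the 17 fell, and the CDC20 call held in 20 of 21 alternatives. Between spermatocytes and spermatogonia 7 rose and 7 fell (median 0.08), or 4 and 8 with no normalization factors and 3 and 7 on log2(TPM + 1), with medians below 0: CDC27 rose (454 ± 54.0 against 120 ± 1.29 CPM) and the catalytic subunit gene ANAPC2 fell (34.4 ± 3.52 against 128 ± 0.834). CDC20 stood at 249.9 ± 12.8 against 507 ± 8.88 CPM there (edgeR adjusted p = 4.06e-05).

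Genes that guard cohesin from separase were led by SGO2, the shugoshin of meiotic centromeres. SGO2 stood at 806 ± 45.8 CPM in spermatocytes against 181 ± 4.77 in spermatogonia, and at 124 ± 31.1 CPM in round spermatids against the 806 ± 45.8 of spermatocytes. Of the 8 genes of that list, phosphatase 2A subunits for the most part, 5 rose and 2 fell in spermatocytes against spermatogonia (median 0.75), 4 and 3 with no normalization factors (median 0.33), and 2 and 2 on log2(TPM + 1) (median 0.22). In round spermatids 4 rose and 3 fell against spermatocytes (median 0.23), or 2 and 3 on log2(TPM + 1), and 3 rose and 2 fell against spermatogonia (median 0.17), or 2 and 3 on log2(TPM + 1) (median -0.43). ESPL1 itself was lower in spermatocytes than in spermatogonia, where SGO2 was higher.

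M-phase kinases and checkpoint genes were lower in round spermatids almost throughout, and theirs was the lowest median of the 8 lists against spermatocytes. Of 13 genes 12 fell and 0 rose against spermatocytes (median -1.87) and 12 fell and 0 rose against spermatogonia (median -1.23), and on log2(TPM + 1) the medians were -1.82 and -1.84. With no normalization factors 9 fell against spermatocytes (median -1.42) and 12 against spermatogonia (median -1.21). BUB1B, the checkpoint protein BUBR1, stood at 10.2 ± 1.16 CPM in round spermatids, against 143 ± 19.4 in spermatocytes and 56.9 ± 1.20 in spermatogonia. BUB1 stood at 121 ± 4.31 CPM in round spermatids, against 325 ± 19.0 in spermatocytes and 236 ± 3.38 in spermatogonia. In spermatocytes 8 rose and 3 fell against spermatogonia (median 0.46), or 4 and 4 both with no normalization factors and on log2(TPM + 1) (median -0.07 on the last): the checkpoint kinase TTK rose (492 ± 32.8 against 179 ± 2.55 CPM) and the Aurora kinase AURKB fell (58.2 ± 2.49 against 132 ± 2.22). The BUB1 rise there held in 16 of 21 alternatives.

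Regulators of M-phase transcription included the MYB relatives. MYBL1, a MYB factor of spermatocytes needed for male meiosis in mouse, stood at 338 ± 20.5 CPM in spermatocytes against 55.5 ± 2.47 in spermatogonia, while MYBL2, its relative in mitotic cells, stood at 23.8 ± 3.20 against 61.9 ± 0.725 (edgeR adjusted p = 8.37e-07 and 3.69e-06). In round spermatids MYBL1 fell to 27.8 ± 6.05 CPM against 338 ± 20.5 in spermatocytes, and MYBL2 rose to 50.4 ± 1.69 against 23.8 ± 3.20. Against spermatogonia both fell in round spermatids, MYBL1 at 27.8 ± 6.05 against 55.5 ± 2.47 CPM and MYBL2 at 50.4 ± 1.69 against 61.9 ± 0.725 CPM, the last call held in 9 of 21 alternatives. Of 14 genes of the list 7 rose and 5 fell in spermatocytes against spermatogonia (median 0.17), or 4 and 6 with no normalization factors (median -0.25) and 2 and 6 on log2(TPM + 1) (median -0.33). In round spermatids 3 rose and 8 fell against spermatocytes (median -0.59), or 4 and 4 with no normalization factors, and 2 rose and 11 fell against spermatogonia (median -0.73). Of the 3 proliferation markers, the replicative helicase genes MCM2 and MCM5 fell in spermatocytes (MCM5 at 36.0 ± 4.36 against 104 ± 1.17 CPM in spermatogonia), whereas the topoisomerase TOP2A rose (908 ± 77.2 against 400.2 ± 10.5). TOP2A fell to 197 ± 33.7 CPM in round spermatids, and of the 3 markers 2 fell there against spermatocytes (1 rose and 1 fell with no normalization factors) and 3 against spermatogonia (medians of -0.51 and -1.33, after -1.52 in spermatocytes against spermatogonia).

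**Figure D5:**
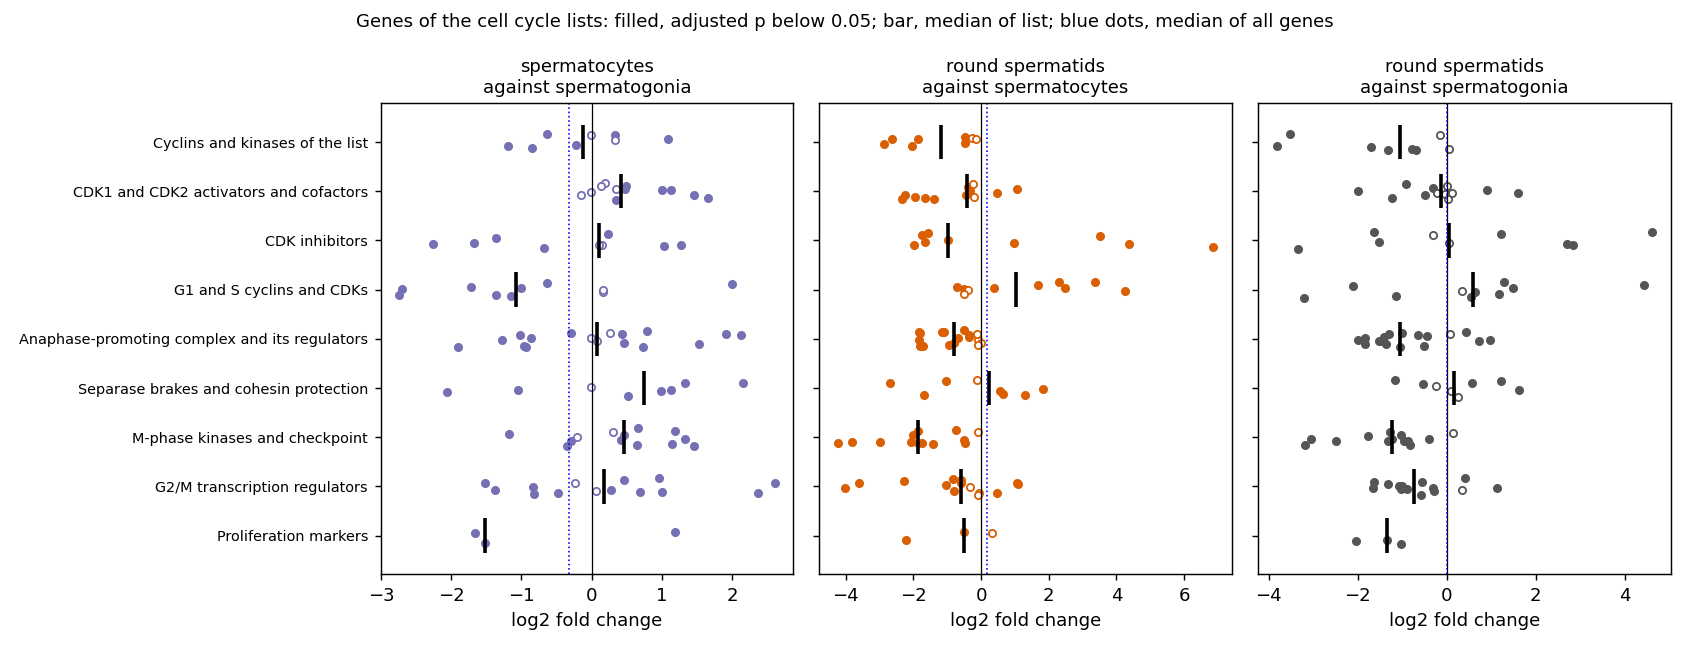
Log2 fold change in each comparison for every tested gene of the 8 cell cycle lists. The top row holds the 8 matched genes followed here, labelled as cyclins and kinases of the list. Filled points passed an adjusted p below 0.05, thick bars are list medians and the dotted line is the median of all genes. M-phase kinases and checkpoint genes lie almost wholly below 0 in round spermatids (12 of 13 fell), while G1 and S genes lie on both sides of it (6 of 10 rose in each of these comparisons).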

How the data were processed

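Testis cell RNA went through a directional Illumina kit and paired-end sequencing, per the labels' protocols. The submitters' processing notes name bcl2fastq and Sscrofa11.1. Aligner, quantifier, annotation and strand setting: not given in the sources used here. The authors deposited estimated counts and TPM per gene and library. The deposited TPM columns sum to 3.19 to 11.8% under the full scale. Spermatogonia columns carry the name KIT and spermatocyte columns a short form of pachytene, and were matched to samples by meaning and number; 6 of the 15 library columns were not used. The labels speak of biological samples but name no animals, so the spread behind each p-value is that between libraries and may be technical.

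The highest-count identifier was taken per symbol. By RefSeq coordinates of Sscrofa11.1, CDK1 overlaps a pseudogene, PKMYT1 overlaps PAQR4 and another locus, and CCNB3 overlaps a lncRNA, so their counts may include shared reads. Estimated counts were rounded, filtered with filterByExpr, scaled by TMM and fitted over all 9 libraries by glmQLFit and glmQLFTest of edgeR 4.0.16, under R 4.3.3. Benjamini-Hochberg adjustment ran over 16802 genes. The standard error is the log2 fold change divided by the square root of F. Alternatives used DESeq2 1.42.0 and limma 3.58.1 on log2(TPM + 1) and log2(TPM + 0.1), other scalings and filters, and single libraries left out. Shares were compared with exact permutation tests in scipy 1.17.1. The fits were also run on simulated counts, in which all stages shared a common mean profile apart from a small set of changed genes. That run cannot judge the scaling between stages as unlike as these. The genes, lists and markers were chosen with earlier results of these data known. Named genes were the 8 matched members, a fixed set of 14 division genes, and per list and comparison the most changed called genes, at most 3 in the commoner direction and 2 opposite, some of which are left unnamed. Same-numbered libraries did not deviate together (r from -0.116 to 0.0416 over 7 pairs), so the numbers were not taken as pairs.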

Additional observations from a re-analysis of the deposited data

How the results depend on the processing

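Over 21 alternatives per comparison (20 for CCNB3), 437 of 501 values of single genes kept their direction and side of the threshold, 28 lost their call, 7 gained one and 29 changed sign; the cause was not tested. The counts of the 8 genes called stayed within 1.5 times the reported ones: without single libraries they ran from 4 to 6 in spermatocytes against spermatogonia, 5 to 6 in round spermatids against spermatocytes and 6 to 7 in round spermatids against spermatogonia.

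In spermatocytes against spermatogonia, log2 values of the opposite sign were CCNA1 0.024 without the 50 most abundant genes in the scaling and 0.0051 with no filter; CCNB3 -0.086 with no normalization factors, -0.077 on log2(TPM + 1) and -0.16 on log2(TPM + 0.1); and CDK1 -0.089 with no normalization factors, -0.19 on log2(TPM + 1) with or without a mean TPM of at least 1, and -0.19 on log2(TPM + 0.1). CDK2 was 0.17 with RLE size factors and with DESeq2, 0.22 without the 50 most abundant genes, 0.21 with no filter and 0.19 with only these stages in the fit. In round spermatids against spermatocytes, CCNB1 was 0.0032, CCNB3 0.19 and CDK2 0.30 with no normalization factors, and CDK2 was 0.10 with the replicate block. In round spermatids against spermatogonia, CCNB3 was -0.19 on log2(TPM + 1), -0.47 on log2(TPM + 0.1) and -0.023 with spermatogonia libraries summed. Leaving out single libraries gave CDK2 values from -0.15 to 0.12 in spermatocytes against spermatogonia, -0.67 to 0.14 in round spermatids against spermatocytes and -0.69 to 0.13 in round spermatids against spermatogonia, and CCNB3 values from -0.053 to 0.21 in the last comparison.

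Under the replicate block, 11915, 13016 and 13378 genes were called, with 4, 5 and 6 of the 8 genes among them. No pairing by number was seen, and not every library correlated best with its own number. With spermatogonia libraries so closely alike, this does not exclude a pairing. With the closely alike spermatogonia libraries summed to 1, the counts were 9143, 12677 and 10614. The CCNA1 share of A-type cyclins was not run, since CCNA2 was not matched. Shares of estimated counts in place of TPM gave differences for CCNB2 of 23.6, -15.4 and 8.16 percentage points, and for CDK1 of 5.87, -23.4 and -17.5. For the 8.16 points of CCNB2 the libraries of the stages overlapped. CCNB3, at 72.4 to 129 estimated counts per library, is the gene most limited by depth.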

Other observations

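Levels of several of the genes relative to CDK1 differed between stages. The ratio was chosen after the values were seen and has no test. Within each library PKMYT1 had 3.95 ± 0.182 times the TPM of CDK1 in spermatogonia, 2.05 ± 0.457 in spermatocytes and 1.13 ± 0.0978 in round spermatids (SD, n = 3 each). ESPL1 had 1.67 ± 0.0999, 0.584 ± 0.101 and 0.386 ± 0.0919 times the TPM of CDK1 in the same order of stages. CCNA1 moved otherwise, at 5.39 ± 0.163 times CDK1 in spermatogonia, 3.69 ± 0.338 in spermatocytes and 10.9 ± 0.224 in round spermatids. The mean ratio was also highest in round spermatids for CCNB2 (7.74, 13.1 and 14.8 in the same order of stages) and CCNB1 (2.11, 0.933 and 2.75). So it was for CDK2 (0.367, 0.287 and 1.11) and CCNB3 (0.0127, 0.0128 and 0.043). CDK1 and CCNA1 themselves both had their lowest mean TPM there. The ranges of the stages did not overlap for PKMYT1, ESPL1, CCNA1, CCNB1 and CDK2, and overlapped for CCNB2 and CCNB3.

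Among 7772 genes with a symbol and a mean of at least 10 CPM, those most like CDK1 by Pearson r of log2 CPM over 9 libraries were SLC9B1 (0.999), WDCP (0.997) and KATNA1 (0.997). Those most like CCNA1 were RAP1GAP (0.996), DXO (0.996) and OXA1L (0.995). With 3 stages, r mostly ranks agreement of the stage means.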
